A study of Homo sapiens with 12 samples.

Results

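Ephrins and Eph receptors were followed in MDA-MB-231 cells, a triple-negative human breast cancer line, grown next to other engineered tissues. The 9 genes described are the ephrin ligands EFNB2, EFNB1, EFNA1 and EFNA5 and the receptors EPHA2, EPHA4, EPHB2, EPHB3 and EPHB4. They were found by gene symbol and are 9 of the 58735 genes of the count table and 9 of the 22 human ephrin and Eph receptor genes. The list was chosen by gene family with the fold changes of these same comparisons already known, so the differences of the 9 genes between groups are given as a description. The other 13 genes of the family were not on it.

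Ephrins are ligands that stay attached to the cell surface, the A class by a lipid anchor and the B class by a membrane-spanning segment with a short cytoplasmic tail. Eph receptors are receptor tyrosine kinases that bind ephrins on a touching cell, and signals pass into both cells: forward through the receptor's kinase, reverse through the ephrin. The outcome is repulsion or adhesion between cells, as in axon guidance, tissue boundaries and the separation of arteries from veins. EPHA2 is abundant in many triple-negative breast cancer lines, and its main ligand is ephrin-A1.

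All libraries came from GFP-labelled MDA-MB-231 tissue taken from the middle well of a perfused plate on day 5 and sequenced as bulk poly-A RNA. In the cardiac co-culture the neighbouring tissue held iPSC-derived cardiomyocytes with 2% cardiac fibroblasts, in the hepatic co-culture it held HepG2, a liver cancer line, with 2% lung fibroblasts, and in the monoculture the cancer tissue had no such neighbour. There were 4 libraries in each group. The labels call them biological replicates without naming separate cultures, and the p-values therefore cover only library-to-library spread, which may be technical. The cancer cells are 1 cell line in all 12 libraries.

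Library totals, in 1000000 counts, were 27.0 to 37.4 in the cardiac co-culture, 26.2 to 42.4 in the hepatic co-culture and 35.0 to 42.0 in the monoculture. Along the leading principal component (28.5% of variance), cardiac replicate 4 lay at -24.9, away from the other 3 cardiac libraries at 6.79 to 16.3 and within the monoculture range of -51.1 to -22.3, while the hepatic libraries lay at 24.5 to 46.8. Cardiac values of the family genes that passed the threshold with or without it are therefore given both ways. Counts and values of other genes and gene lists include it, unless a library is said to be left out. All 10 listed MDA-MB-231 genes reached 1 CPM (counts per 1000000 counts). Of 5 genes listed as low or absent in this line, 2 also reached 1 CPM in every group. GATA3 averaged 3.78, 3.19 and 4.67 CPM and FOXA1 3.22, 4.20 and 3.62 CPM in the cardiac, hepatic and monoculture libraries. ESR1, on the same list, had 0 to 8 counts in a library.

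Markers of the neighbouring cell types were read in the same libraries. Of the hepatocyte genes 1 of 13 (SERPINA1) and of the cardiomyocyte genes 2 of 14 (TTN and RYR2) reached 1 CPM, and ALB had 0 to 4, 0 to 6 and 0 to 14 counts a library in the cardiac, hepatic and monoculture groups. Summed hepatocyte markers came to 70.1 to 96.1 CPM in the cardiac co-culture, 35.0 to 58.5 CPM in the hepatic co-culture and 42.2 to 74.5 CPM in the monoculture. Summed cardiomyocyte markers came to 19.0 to 21.1, 19.6 to 22.04 and 15.4 to 19.2 CPM in the same groups. Most of the first sum was SERPINA1 (mean 82.0, 46.5 and 57.4 CPM), and most of the second was TTN (17.4, 19.2 and 14.7 CPM). TTN was called higher in the hepatic comparison with the monoculture. Under 1 CPM, MYH6 had 0 to 21, MYL7 0 to 8 and ACTN2 0 to 8 counts a library in the cardiac group. The highest count of each was in cardiac replicate 4, the library that lay apart. MYH6 and MYL7 were at 0 in the other cardiac libraries. All of MYH6, MYL7 and ACTN2 were at 0 in every hepatic and monoculture library. MYH7 and NPPB were at 0 in every cardiac library, and MYL4 reached 24 counts in a hepatic library against 4 in a cardiac one.

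Some fibroblast and endothelial markers were expressed and differed between groups. Of 12 fibroblast genes 5, 3 and 5 reached 1 CPM in the cardiac, hepatic and monoculture groups, with sums of 15.7 to 18.2, 12.5 to 24.9 and 15.8 to 22.8 CPM, and THY1 and POSTN were at 0 in every library. In the hepatic comparison the collagen genes COL1A2 (mean 4.55 CPM in hepatic against 1.56 CPM in monoculture libraries) and COL3A1 (0.634 against 0.0891 CPM) were called higher. The matrix genes DCN (0.278 against 2.48 CPM) and FBLN1 (0.856 against 6.12 CPM) were called lower. Of 10 endothelial genes 5, 5 and 3 reached 1 CPM, with sums of 81.5 to 90.7 CPM in the cardiac co-culture, 99.7 to 109 CPM in the hepatic co-culture and 73.1 to 84.5 CPM in the monoculture. The receptor gene TIE1 averaged 1.93, 3.15 and 0.367 CPM in the cardiac, hepatic and monoculture libraries and VWF averaged 1.62, 2.86 and 0.596 CPM, both called higher in each co-culture. In the hepatic comparison ESAM was called higher (80.3 against 64.5 CPM) and KDR lower (1.26 against 3.22 CPM). ERG was at 0 in every library and CDH5 had 0 to 5 counts. The part of these marker levels in the results was not tested.

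The promoters of EFNA1, EFNA3 and EFNB2, the 3 ephrin genes called in the hepatic comparison below, are shown. RefSeq (GRCh38.p14) places the 300 bases around the annotated start, 250 before and 50 after, at chr1:155127626-155127925 on the plus strand for EFNA1, chr1:155078587-155078886 on the plus strand for EFNA3 and chr13:106535613-106535912 on the minus strand for EFNB2. Capitals mark ACGTG or GCGTG on either strand, the core to which hypoxia-inducible and related factors bind.
EFNA1: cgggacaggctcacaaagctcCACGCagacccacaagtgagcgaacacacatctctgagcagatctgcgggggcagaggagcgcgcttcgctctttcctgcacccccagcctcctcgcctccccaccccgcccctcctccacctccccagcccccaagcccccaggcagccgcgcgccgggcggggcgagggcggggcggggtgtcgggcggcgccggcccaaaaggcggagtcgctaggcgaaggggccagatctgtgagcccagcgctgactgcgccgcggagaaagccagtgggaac
EFNA3: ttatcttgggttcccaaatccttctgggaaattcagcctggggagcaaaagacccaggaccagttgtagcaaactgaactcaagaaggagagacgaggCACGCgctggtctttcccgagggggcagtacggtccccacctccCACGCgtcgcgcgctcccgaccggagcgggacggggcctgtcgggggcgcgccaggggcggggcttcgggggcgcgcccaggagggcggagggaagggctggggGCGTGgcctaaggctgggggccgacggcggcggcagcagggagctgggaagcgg
EFNB2: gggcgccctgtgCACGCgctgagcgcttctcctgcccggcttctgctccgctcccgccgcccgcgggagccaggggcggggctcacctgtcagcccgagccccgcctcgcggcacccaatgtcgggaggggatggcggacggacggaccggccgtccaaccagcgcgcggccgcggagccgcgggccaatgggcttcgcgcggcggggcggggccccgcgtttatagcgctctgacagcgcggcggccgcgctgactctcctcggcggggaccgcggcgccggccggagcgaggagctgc
EFNA3 held 3 such cores and EFNA1 and EFNB2 held 1 each. All 9 listed genes held at least 1, called or not, as did 16 of the 20 family genes with an entry, and 48.4% of 35116 promoters of the same length. A family gene with several entries was counted if any of them held a core. The 48.4% counts each promoter by itself, so the shares are not on the same basis. The bases G and C made up 71.7% of the EFNA1, 69.3% of the EFNA3 and 78.7% of the EFNB2 promoter, against a median of 58.7% over all promoters. The letters TGANTCA, the AP-1 motif, were in none of the 26 promoter entries of these 20 genes and in 7.71% of all promoters. A match is a description of the letters only.

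The family was dominated by a single receptor and, in the monoculture and the cardiac co-culture, led by a single ligand. Levels between genes are compared as TPM, transcripts per 1000000, from counts per exon length. EPHA2 was the highest of all 22 genes, with 283 ± 30.5 TPM in the cardiac co-culture, 296 ± 19.4 TPM in the hepatic co-culture and 327 ± 32.96 TPM in the monoculture (SD, n = 4 each). It made up 77.3 to 79.6% of the summed TPM of the Eph receptors in cardiac libraries, 77.7 to 82.5% in hepatic libraries and 77.9 to 81.2% in monoculture libraries. EPHB4, the receptor of ephrin-B2 on veins, followed among the receptors with 43.0, 43.2 and 42.7 TPM in the same order of groups. EPHB2 came next with 15.3, 13.2 and 18.9 TPM, then EPHB3 with 10.1, 8.81 and 10.5 TPM, and EPHA4 was the lowest of the listed receptors with 4.53, 3.01 and 5.74 TPM. No 2 neighbours in this order of receptors overlapped in their range of TPM within any group.

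Among the ligands the order changed with the group. EFNB2 led in the monoculture and the cardiac co-culture. It held 39.9 to 47.5% of the summed ephrin TPM in cardiac libraries, 21.8 to 30.3% in hepatic libraries and 47.7 to 56.1% in monoculture libraries. EFNA1 held 13.9 to 20.9% in cardiac libraries, 27.4 to 31.1% in hepatic libraries and 11.8 to 13.3% in monoculture libraries. In the hepatic co-culture EFNA1 averaged 50.1 ± 5.49 TPM and EFNB2 45.0 ± 3.66 TPM (SD, n = 4), and the ranges of the 2 ligands overlapped there. The summed ephrin TPM was 231 ± 13.9 in the cardiac co-culture, 169.6 ± 10.5 in the hepatic co-culture and 203 ± 11.4 in the monoculture, and the summed receptor TPM 359.9 ± 34.0, 367 ± 14.9 and 409 ± 35.0. EFNA4, off the list, had 28.4, 24.8 and 25.3 TPM and lay beside EFNA1 in the monoculture, where their ranges overlapped.

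**Figure D1:**
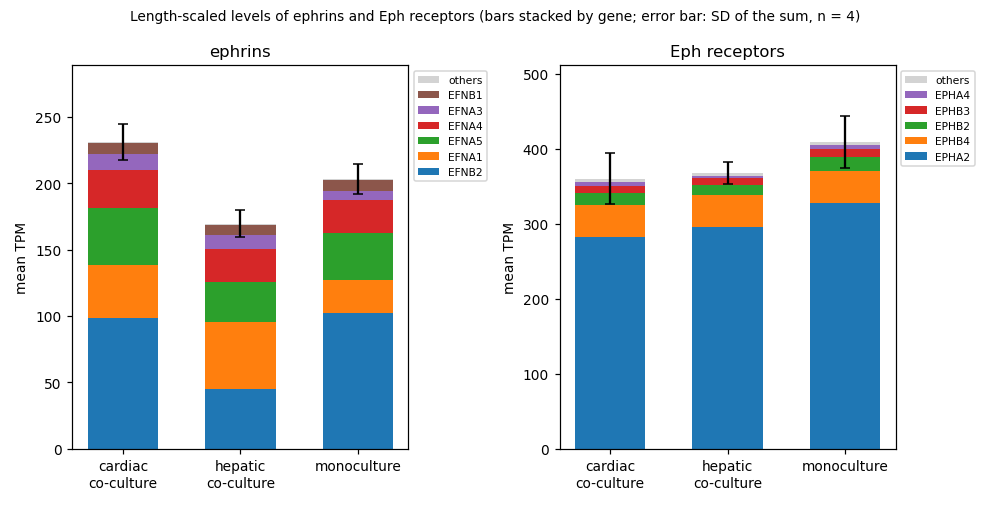
Mean TPM of the ephrins (left) and the Eph receptors (right), stacked by gene, for the cardiac co-culture, the hepatic co-culture and the monoculture, 4 libraries each. EFNB2 fills much less of the hepatic bar (45.0 TPM) than of the cardiac (98.1 TPM) and monoculture (102 TPM) bars, while EPHA2 makes up most of every receptor bar.

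Next to the hepatic tissue, EFNB2, EPHA4 and EPHB2 fell and EFNA1 rose relative to the monoculture. Next to the cardiac tissue, EFNB2 stayed near the monoculture level and EFNA1 rose. EFNA5 rose too, but its call held under only 8 of 17 alternative fits, against 17 of 17 for EFNA1. These calls are adjusted p under 0.05 in edgeR's quasi-likelihood test over all 17468 genes tested. In the hepatic comparison 4 of the 9 genes passed, where 28.0% of all tested genes did (14.4% higher and 13.6% lower). In the cardiac comparison 2 of 9 passed, where 8.26% of all did (4.93% higher and 3.33% lower). Between the co-cultures 2 of 9 passed, where 6.18% of all did (3.27% higher and 2.91% lower). Upper-quartile scaling made 72.2% of all cardiac calls higher ones, against 59.7% with TMM scaling. Both comparisons with the monoculture use the same 4 monoculture libraries. The median log2 fold change of the 9 genes was -0.12, -0.02 and 0.15 in these 3 comparisons, against 0.01, 0.01 and -0.00 over all tested genes. In bulk tissue, fewer cells that express a gene and less RNA of it per cell cannot be told apart.

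**Figure D2:**
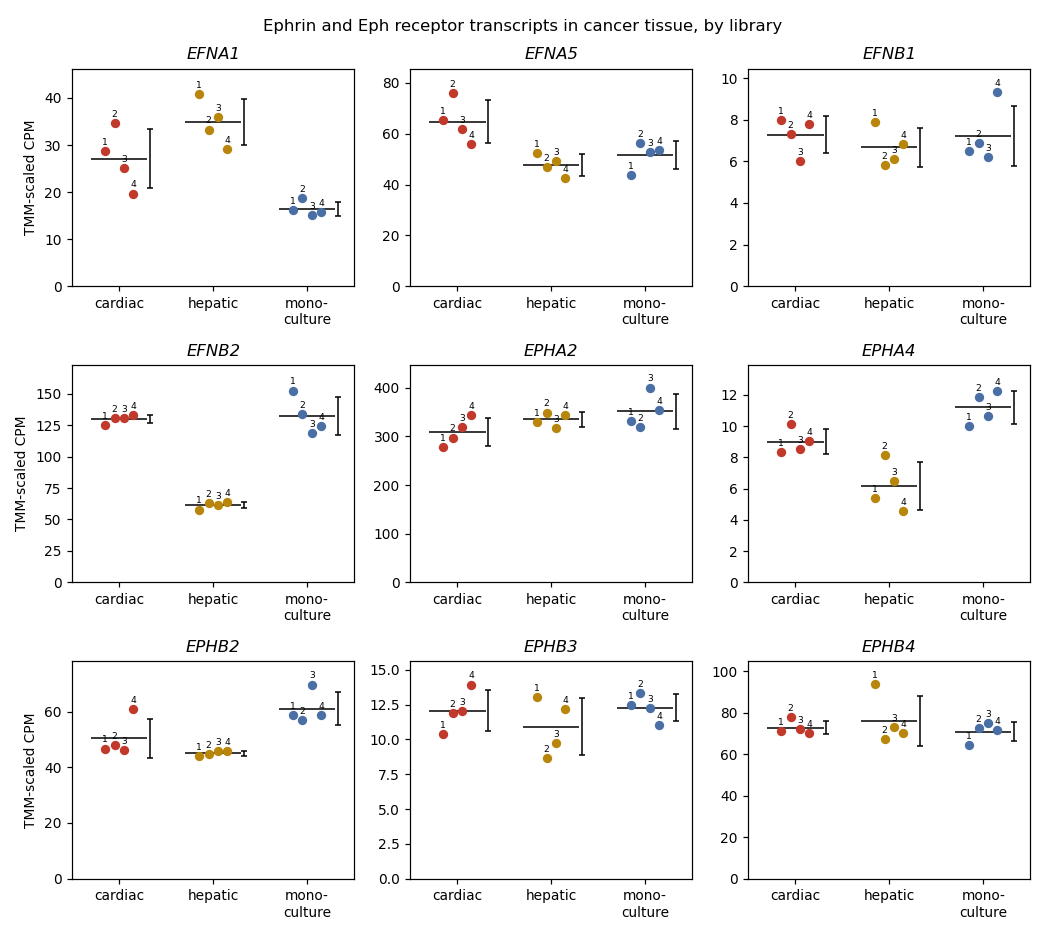
CPM of each of the 9 listed genes in every library (points) with the group mean and SD, for the cardiac co-culture, the hepatic co-culture and the monoculture. The 4 hepatic libraries of EFNB2 lie between 57.9 and 63.9 CPM, apart from all 8 others, and the 4 monoculture libraries of EFNA1 lie between 15.1 and 18.7 CPM, under all 8 others.

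EFNB2 encodes ephrin-B2, the ligand that marks arterial endothelium and binds EPHB4 and other EphB receptors (ENSG00000125266, chromosome 13, 106489731 to 106535662 on the minus strand of GRCh38). Its level was 125, 130, 130 and 133 CPM in the cardiac libraries, 57.9, 62.8, 61.3 and 63.9 CPM in the hepatic libraries and 152, 134, 119 and 124 CPM in the monoculture libraries. The hepatic libraries lay under all others with no overlap, and the cardiac libraries lay inside the monoculture range. The log2 fold change was -1.11 ± 0.07 (SE) for the hepatic co-culture and -0.03 ± 0.07 for the cardiac co-culture, each against the monoculture. The cardiac co-culture stood 1.08 ± 0.07 above the hepatic co-culture on the log2 scale. The antisense gene AL138689.2 overlaps 1313 exonic bases of EFNB2 and had 9 to 28, 2 to 18 and 23 to 40 counts a library in the cardiac, hepatic and monoculture groups. The labels describe library preparations both with and without strand marking, so reads of such pairs cannot be told apart here.

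EFNA1 encodes ephrin-A1, the main ligand of EPHA2 (ENSG00000169242, chromosome 1, 155127460 to 155134857 on the plus strand). It had 28.8, 34.6, 25.1 and 19.7 CPM in the cardiac libraries, 40.8, 33.3, 36.0 and 29.2 CPM in the hepatic libraries and 16.2, 18.7, 15.1 and 15.8 CPM in the monoculture libraries. Both co-cultures lay above the monoculture in all 4 libraries, and they overlapped with each other. Its log2 fold change was 1.08 ± 0.14 in the hepatic and 0.71 ± 0.14 in the cardiac comparison with the monoculture. Without cardiac replicate 4, the lowest of the cardiac libraries, the cardiac value was 0.84 ± 0.12. The cardiac co-culture stood at -0.37 ± 0.14 against the hepatic co-culture, which did not pass (adjusted p = 0.141). It did pass without cardiac replicate 2 (adjusted p = 0.0339) and in edgeR with no filter (adjusted p = 0.0154).

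EFNA5 encodes ephrin-A5, which binds several EphA receptors and also EPHB2 (ENSG00000184349, chromosome 5, 107376889 to 107670895, minus strand). It had 65.3, 76.2, 62.0 and 55.8 CPM in the cardiac libraries, 52.4, 46.8, 49.2 and 42.5 CPM in the hepatic libraries and 43.7, 56.3, 52.9 and 53.7 CPM in the monoculture libraries. The cardiac libraries did not overlap the hepatic ones, and the lowest cardiac library lay just under the highest monoculture library. It stood 0.44 ± 0.10 above the hepatic co-culture on the log2 scale and 0.33 ± 0.10 above the monoculture, where the adjusted p was 0.0466. That last call was lost without monoculture replicate 1, 3 or 4, without cardiac replicate 1, 2 or 3 and without hepatic replicate 2 or 3, with adjusted p up to 0.186, and held without cardiac replicate 4 (0.39 ± 0.10).

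EFNB1 encodes ephrin-B1, which like ephrin-B2 binds EphB receptors, and was low and level. It ranged over 6.01 to 7.99 CPM in the cardiac, 5.81 to 7.90 CPM in the hepatic and 6.19 to 9.33 CPM in the monoculture libraries. The 3 groups overlapped, and its log2 fold changes were -0.12 ± 0.16 in the hepatic and 0.01 ± 0.16 in the cardiac comparison with the monoculture.

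Of the receptors, EPHA2 binds ephrin-A1 and the other A ligands. Its level was 278, 298, 319 and 343 CPM in the cardiac libraries, 329, 349, 317 and 344 CPM in the hepatic libraries and 332, 320, 400 and 355 CPM in the monoculture libraries. The groups overlapped, and the log2 fold changes were -0.07 ± 0.08 in the hepatic and -0.19 ± 0.08 in the cardiac comparison. Without cardiac replicate 4, the highest cardiac library, the cardiac value was -0.24 ± 0.08 and passed (adjusted p = 0.0378).

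EPHA4 binds ephrins of both classes (ENSG00000116106, chromosome 2, 221418027 to 221574202, minus strand). It had 8.36, 10.1, 8.52 and 9.05 CPM in the cardiac libraries, 5.40, 8.17, 6.51 and 4.59 CPM in the hepatic libraries and 9.99, 11.8, 10.7 and 12.3 CPM in the monoculture libraries. All hepatic libraries lay under all monoculture and all cardiac libraries, and the cardiac and monoculture ranges overlapped by 1 library each. The log2 fold change was -0.85 ± 0.16 in the hepatic and -0.31 ± 0.16 in the cardiac comparison with the monoculture, the second not called. The cardiac co-culture stood 0.54 ± 0.16 above the hepatic co-culture, at an adjusted p of 0.0504, and this passed without hepatic replicate 2 (0.71, adjusted p = 0.0115), in DESeq2 (0.0183), with DESeq2's size factors (0.0491) and with no filter (0.0187). The antisense gene AC079834.2 overlaps 353 of its exonic bases, with 2 to 9, 5 to 14 and 0 to 26 counts a library in the cardiac, hepatic and monoculture groups.

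EPHB2 is a receptor of B ephrins that positions cells along the intestinal crypt (ENSG00000133216, chromosome 1, 22710839 to 22921500, plus strand). It had 46.7, 47.9, 46.2 and 60.8 CPM in the cardiac libraries, 43.9, 44.7, 45.7 and 45.9 CPM in the hepatic libraries and 58.8, 56.9, 69.7 and 58.7 CPM in the monoculture libraries. The hepatic libraries lay under all others, and cardiac replicate 4 alone among the cardiac libraries lay within the monoculture range. The log2 fold change was -0.44 ± 0.09 in the hepatic comparison. In the cardiac comparison it was -0.28 ± 0.09 with all 4 libraries (adjusted p = 0.0618 in edgeR, 0.0246 in edgeR with no filter and 0.0385 in DESeq2). Without replicate 4 it was -0.38 ± 0.08 (adjusted p = 0.00299).

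EPHB3, another EphB receptor of the crypt, had 10.4 to 13.9 CPM in the cardiac, 8.67 to 13.1 CPM in the hepatic and 11.02 to 13.3 CPM in the monoculture libraries. EPHB4 had 70.4 to 77.8, 67.2 to 93.9 and 64.3 to 75.3 CPM in the same groups. Both overlapped between all groups, with log2 fold changes of -0.17 ± 0.14 and 0.10 ± 0.09 in the hepatic and -0.02 ± 0.14 and 0.04 ± 0.09 in the cardiac comparison with the monoculture. Neither was called in any of the 3 comparisons.

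Of the 13 other family genes, 10 could be tested. EFNA3, an A ligand that lies between EFNA4 and EFNA1 on chromosome 1, was the only one called in either comparison with the monoculture. It had 7.44, 5.97, 6.26 and 3.79 CPM in the cardiac libraries, 6.25, 6.14, 5.21 and 4.51 CPM in the hepatic libraries and 2.82, 3.39, 3.00 and 3.89 CPM in the monoculture libraries. All hepatic libraries lay above all monoculture libraries, and cardiac replicate 4 alone among the cardiac ones lay within the monoculture range. EFNA3 rose by 0.76 ± 0.20 (adjusted p = 0.00871) in the hepatic and by 0.84 ± 0.20 (adjusted p = 0.0188) in the cardiac comparison. The cardiac call was lost without monoculture replicate 1 or 3 or cardiac replicate 1, 2 or 3 (adjusted p up to 0.0712), and without cardiac replicate 4 the value was 1.00 ± 0.18. EFNA3 and EFNA4 share 853 and 189 exonic bases with the same-strand gene AL691442.1, listed at 0 counts in every library, so reads in those exons may be missing from their counts. EFNA4 did not pass, at 0.06 ± 0.17 in the hepatic and 0.20 ± 0.17 in the cardiac comparison.

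EPHA3, a receptor of A ephrins, had 3.85, 2.27, 3.27 and 1.11 CPM in the cardiac libraries, 1.73, 1.04, 0.788 and 0.842 CPM in the hepatic libraries and 0.526, 2.60, 0.392 and 0.639 CPM in the monoculture libraries. Its cardiac value of 1.32 ± 0.55 did not pass (adjusted p = 0.148) in edgeR's main fit with all libraries. With all libraries it passed in DESeq2 (1.33, adjusted p = 0.0488) and in edgeR with no filter (1.31, adjusted p = 0.0032). It also passed without cardiac replicate 4 (1.59 ± 0.52, adjusted p = 0.0456) and without monoculture replicate 2 (2.33, adjusted p = 0.0053). Between the co-cultures EPHA3 passed only with no filter (1.24, adjusted p = 0.0087). EPHA6 had 0.264 to 0.763 CPM in the cardiac, 0.472 to 0.918 CPM in the hepatic and 0.972 to 1.33 CPM in the monoculture libraries, so that both co-cultures lay under the monoculture with no overlap. It stood at -1.14 ± 0.40 (adjusted p = 0.0790) in the cardiac and -0.61 ± 0.39 (adjusted p = 0.260) in the hepatic comparison, neither called. Without cardiac replicate 4 its cardiac value was -1.44 ± 0.44 and passed (adjusted p = 0.0267). EFNB3, EPHA1, EPHA5, EPHA7 and EPHB6 stayed low and were not called, nor was EPHA10, and EFNA2, EPHA8 and EPHB1 were too low to be tested. Over the family of 19 tested genes, 5 were called in the hepatic comparison, 3 in the cardiac comparison and 2 between the co-cultures, where 28.0%, 8.26% and 6.18% of all tested genes were called. The hepatic share, 26.3%, lies near that of all genes. Without cardiac replicate 4 the cardiac comparison called 7 of the family, EFNA1, EFNA5, EPHA2, EPHB2, EFNA3, EPHA3 and EPHA6, where 19.1% of all tested genes were called. It called only EFNA1 without monoculture replicate 1 or 3 or without cardiac replicate 1, 2 or 3.

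**Figure D3:**
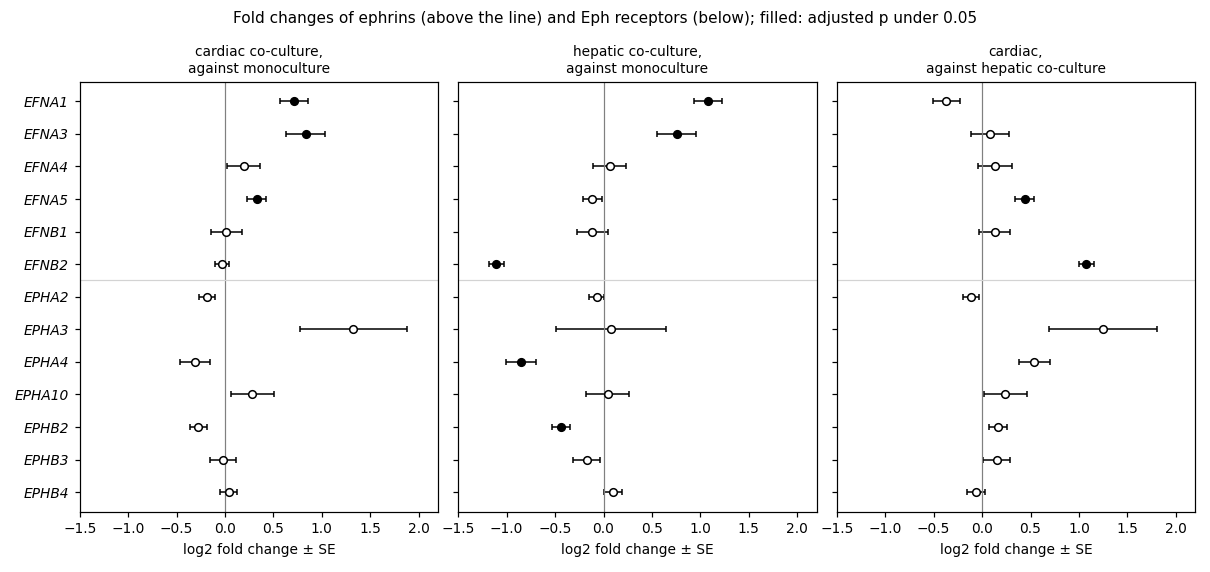
Log2 fold change ± SE of the 9 listed genes and of EFNA3, EFNA4, EPHA3 and EPHA10 in the cardiac co-culture against the monoculture, the hepatic co-culture against the monoculture and the cardiac against the hepatic co-culture, with filled points for an adjusted p under 0.05. EFNB2 stands at -1.11 in the hepatic and -0.03 in the cardiac comparison, while EFNA1 lies to the right of 0 in both.

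EFNA4, EFNA3 and EFNA1 sit side by side on chromosome 1, and their neighbours were looked at in a window of 100 kb to each side that was chosen after seeing the values. In the hepatic comparison 8 of the 17 tested neighbours were called higher and 1 lower, where 14.4% and 13.6% of all tested genes were. ADAM15, a membrane metalloprotease gene just before EFNA4, stood at 0.39 ± 0.07, and THBS3, a thrombospondin gene beyond EFNA1, at 0.75 ± 0.15. The gene called lower was FLAD1. In the cardiac comparison 2 of the 17 neighbours, THBS3 and AC234582.1, were called, both higher, where 4.93% of all tested genes were. AC234582.1, an antisense gene that averaged 0.729 CPM, overlaps the span of THBS3 on the opposite strand. With the strand setting unknown, reads of this pair may not be separable, and both genes are also among those called higher in the hepatic comparison.

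**Figure D4:**
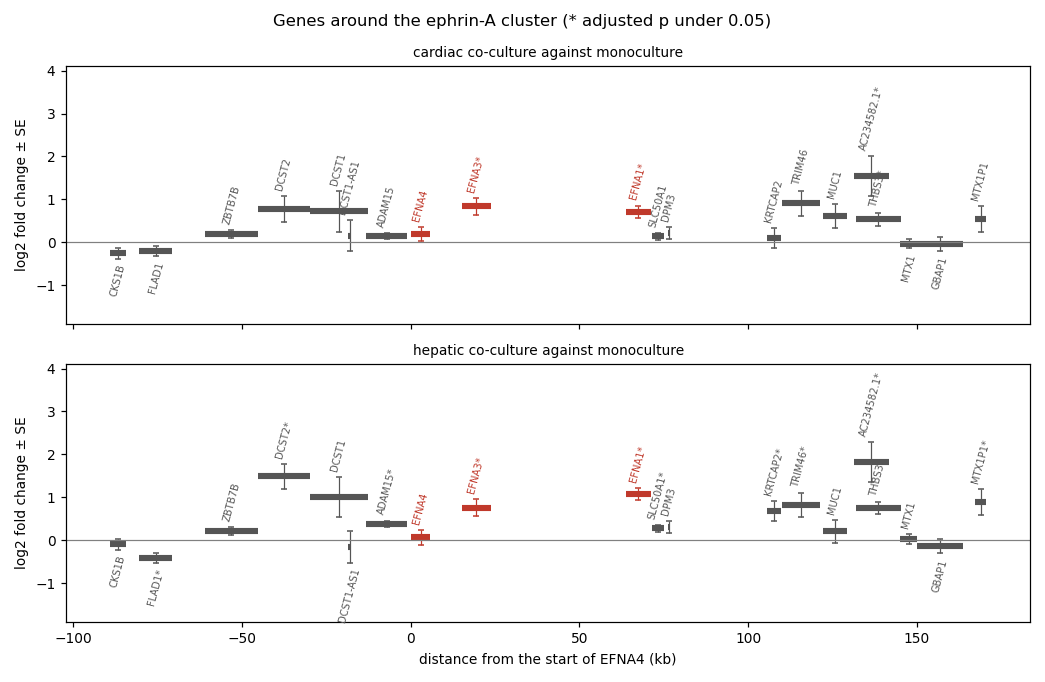
Log2 fold change ± SE of the tested genes around the ephrin-A genes against distance from the start of EFNA4 in kb, for the cardiac (top) and the hepatic (bottom) co-culture against the monoculture. Horizontal bars span each gene, ephrin genes are red and asterisks mark an adjusted p under 0.05; EFNA3 and EFNA1 carry one in both panels, and EFNA4 in neither.

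Transcripts of proteins that carry the signal onward changed in both directions in the hepatic comparison, where 28.0% of all tested genes were called. Of 25 tested kinases, adaptors and phosphatases of forward signalling, 5 were called higher and 7 lower (median log2 fold change -0.08), where 14.4% and 13.6% of all tested genes were. RASA1, the Ras GTPase-activating protein that binds activated EphB receptors, rose by 0.62 ± 0.07 (adjusted p = 8.30e-06), while the adaptor CRK fell by 0.37, the phosphatase PTPN11 by 0.41 and the PI3-kinase subunit PIK3R1 by 0.45 on the log2 scale. Of 8 tested partners of reverse signalling, 1 was called (12.5%, under the 28.0% of all tested genes), the phosphatase PTPN13, which binds the tail of B ephrins and fell by 0.39. The calls of the genes named in this paragraph held when each of the 12 libraries was left out in turn.

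Of the 7 tested proteases that shed ephrins and Eph receptors, 1 was called in either comparison (14.3%, where 28.0% of all tested genes were called in the hepatic and 8.26% in the cardiac comparison). MMP14, a membrane metalloprotease that can cut EPHA2, averaged 783 ± 117 CPM in the cardiac, 1031 ± 183 CPM in the hepatic and 508 ± 58.0 CPM in the monoculture libraries (SD, n = 4 each). It rose by 1.02 ± 0.13 (adjusted p = 8.45e-05) in the hepatic comparison and by 0.63 ± 0.13 (adjusted p = 0.0147) in the cardiac one, where it missed the threshold without cardiac replicate 2 (0.56, adjusted p = 0.0518).

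In the cardiac comparison with all libraries 2 of the 25 forward signalling genes were called, a share near the 8.26% of all tested genes. The 2 genes were the adaptor SHC1 at 0.32 and PTPN11 at -0.28. Without cardiac replicate 4, 19.1% of all tested genes were called, and this list was not recounted. SHC1 stayed called whichever library was left out. The call of PTPN11 was lost without monoculture replicate 1, 3 or 4 or cardiac replicate 1, 2 or 3, with adjusted p up to 0.101. Between the co-cultures 2 of the 25 were called (8.0%, where 6.18% of all tested genes were). The cardiac co-culture had lower RASA1 than the hepatic one, at -0.53 ± 0.07 (adjusted p = 9.11e-05), and higher CRK, at 0.22 ± 0.06 (adjusted p = 0.0292). The call of CRK was lost in 5 of the 12 fits that left out 1 library.

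For the 3 members whose group means ranged widest, the most alike protein-coding genes were ranked by the root mean square difference of centred log2 CPM over the 12 libraries, among 11623 genes. Near EFNB2 were LDLRAD3 (0.163) and ADPRHL1 (0.174). For EFNA1 the nearest were ETV1 (0.110), LTBP4 (0.112) and MMP14 (0.117), and for EPHA4 they were VGLL3 (0.0973), WWC1 (0.182) and EFEMP1 (0.186).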

How the data were processed

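The authors deposited 1 table of raw counts per gene for the 12 libraries. Per the submitters' processing notes, GRCh38, HISAT2 2.2.1, featureCounts 2.0.6 and DESeq2 1.42.0 were used; for the annotation and the strand setting, the sources used here give nothing. Deposited counts were tested with edgeR 4.0.16 in R 4.3.3: TMM scaling, genes kept by filterByExpr, 1 quasi-likelihood fit over the 3 groups of 4 libraries, and Benjamini-Hochberg adjustment over all 17468 tested genes, with a threshold of 0.05. The kept genes held 99.9% of counts. The scripts were tested on simulated data. CPM used TMM-scaled totals, and TPM used exon lengths from GENCODE 29. Log2 CPM for likeness used a prior count of 2. Alternatives were DESeq2, its size factors, upper-quartile scaling, no filter, a replicate block and leaving out each library.

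The members and all gene lists were chosen with earlier results of these data known. For each list and comparison, up to 4 called genes with the lowest adjusted p were named. The window around EFNA1 and the promoter motifs were chosen after values were seen. Counts per gene limit the precision, and intervals cover the spread between libraries only. Protein sequences were not used here. Some genes and 1 gene list are not reported here.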

Additional observations from a re-analysis of the deposited data

Results flagged for a closer look

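In 5 of the 57 sets of 4 libraries examined, 1 library lay far from the other 3, where chance gives about 1 in 20. EPHB2 was at 60.8 CPM in cardiac replicate 4, against 46.2 to 47.9 CPM in the other cardiac libraries, and at 69.7 CPM in monoculture replicate 3, against 56.9 to 58.8 CPM in the other monoculture libraries. EFNA4 was at 12.9 CPM in hepatic replicate 1, against 7.06 to 7.35 CPM in the other hepatic libraries. In monoculture replicate 2, EPHA3 was at 2.60 CPM, against 0.392 to 0.639 CPM in the other monoculture libraries, and EPHB6 at 1.20 CPM, against 0.389 to 0.526 CPM.

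The responses to the 2 co-cultures differed from each other for 2 listed genes, by the direct contrast of cardiac with hepatic co-culture in edgeR's fit. EFNB2 stood 1.08 higher on the log2 scale in the cardiac than in the hepatic co-culture, and EFNA5 stood 0.44 higher. The list was made with these results known, so both are a description.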

How the results depend on the processing

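In the hepatic comparison the same 5 family genes were called under all 17 alternatives. In the cardiac comparison DESeq2 called 2303 genes, 5 of them in the family, and the fit with no filter called 2219, also 5 in the family. Leaving out 1 library gave 263 (without cardiac replicate 2) to 3378 calls (without cardiac replicate 4), with 1 to 7 family genes. The lowest counts otherwise came without monoculture replicate 3 (369), cardiac replicate 3 (397), monoculture replicate 4 (518), cardiac replicate 1 (523) and monoculture replicate 1 (558). Between the co-cultures the fit with no filter called 5 family genes, and leaving out 1 library gave 676 (without hepatic replicate 3) to 1269 calls. Upper-quartile scaling made 72.2% of the cardiac calls higher ones, against 59.7% with TMM, and gave values of 0.0053 for EFNB2 and 0.0088 for EPHB3 in the cardiac comparison, both of opposite sign to TMM. Signs of genes that were not called also turned when 1 library was left out. The ranges in the hepatic comparison were -0.21 to 0.027 for EFNB1, -0.018 to 0.15 for EPHB4, -0.19 to 0.15 for EFNA4, -0.22 to 1.08 for EPHA3 and -0.049 to 0.16 for EPHA10. In the cardiac comparison they were -0.074 to 0.046 for EFNB2, -0.054 to 0.16 for EFNB1, -0.10 to 0.042 for EPHB3 and -0.0077 to 0.068 for EPHB4, and between the co-cultures -0.12 to 0.056 for EPHB4 and -0.051 to 0.25 for EFNA3. The cause was not tested. With the replicate block, 4660, 1310 and 891 genes were called in the hepatic comparison, the cardiac comparison and between the co-cultures, EFNA5 missed the threshold in the cardiac comparison (adjusted p = 0.0543), and EPHA4 passed between the co-cultures (0.56, adjusted p = 0.0428). Same-numbered libraries correlated at -0.0816 to 0.113 in their deviations, and at most 3 of 8 libraries in a comparison correlated best with their own number. The numbers are those of the sample titles, and pairing the cardiac libraries by library name was not tested. With so few libraries a group, this check cannot exclude pairing or a shared batch. Depth limits EFNA2, EPHA8 and EPHB1, with 0 to 10, 0 to 4 and 0 to 4 counts a library.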

Other observations

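Other guidance families were examined beside the ephrins. Of 18 tested semaphorins, secreted or membrane-bound guidance ligands, 10 were called higher and 1 lower in the hepatic comparison with the monoculture (median log2 fold change 0.48), and 4 higher in the cardiac one (median 0.38). Of all tested genes 14.4% were called higher and 13.6% lower in the hepatic comparison, and 4.93% higher and 3.33% lower in the cardiac one. SEMA4B averaged 373 ± 70.9 CPM in the cardiac, 418 ± 53.8 CPM in the hepatic and 194 ± 38.5 CPM in the monoculture libraries (SD, n = 4 each). It rose by 1.11 ± 0.17 (edgeR's adjusted p = 6.67e-04) in the hepatic and 0.94 ± 0.17 (adjusted p = 0.0115) in the cardiac comparison, and SEMA3B by 0.96 ± 0.11 and 0.68 ± 0.11. Of the 11 plexins and neuropilins, the receptors of semaphorins, 5 were called higher and 2 lower in the hepatic comparison and 3 higher in the cardiac one. PLXNB3 rose by 1.00 ± 0.17 and 0.78 ± 0.17. Its cardiac call was lost without monoculture replicate 1, 3 or 4 or cardiac replicate 2 or 3 (adjusted p up to 0.0676). The cardiac calls of PLXNA3, PLXNB1 and the semaphorin SEMA4C were likewise each lost without cardiac replicate 2, and in further fits that left out 1 library (edgeR's adjusted p up to 0.0751).

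Of 10 tested slits, robos, netrins and their receptors, 3 were called higher and 2 lower in the hepatic comparison, and 2, ROBO3 and ROBO4, higher in the cardiac one, where 28.0% and 8.26% of all tested genes were called. Both cardiac calls were lost without monoculture replicate 3 or cardiac replicate 3, and that of ROBO3 also without monoculture replicate 4 or cardiac replicate 2 (adjusted p up to 0.0680). SLIT2, a repulsive ligand of Robo receptors, averaged 13.02 ± 3.11 CPM in the cardiac, 30.9 ± 6.30 CPM in the hepatic and 11.9 ± 1.87 CPM in the monoculture libraries. UNC5B, a netrin receptor, averaged 3.54 ± 0.89, 0.90 ± 0.45 and 3.87 ± 1.11 CPM. The cardiac co-culture differed from the hepatic one by -1.25 ± 0.18 for SLIT2 (adjusted p = 5.19e-04) and 1.99 ± 0.32 for UNC5B (adjusted p = 5.46e-04), in edgeR's test. Of 15 tested Notch pathway genes, 5 were called higher in the hepatic comparison. In the cardiac one with all libraries 1 was, NOTCH3 (6.67%, under the 8.26% of all tested genes). NOTCH3 stood at 1.08 ± 0.20 and 0.96 ± 0.20.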
